A study of Mus musculus with 35 samples.

Results

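CA3 pyramidal neurons of the mouse hippocampus were taken from single-nucleus RNA sequencing of 14 libraries, as nuclei that carried a fixed combination of CA3 transcripts. A barcode was kept if it held at least 1000 detected genes, at least 1 UMI (unique molecular identifier, 1 counted RNA molecule) of Slc17a7, the vesicular glutamate transporter of excitatory cortical neurons, and at least 3 UMIs of the kainate receptor subunit Grik4. It also needed at least 3 UMIs of Iyd and Ccbe1 together and at least 10 UMIs from at least 4 of the 5 markers Iyd, Ccbe1, Nectin3, Rerg and Grik4. Barcodes with more than 1 UMI of Prox1, the granule cell transcription factor, with more than 2 UMIs of the inhibitory neuron genes Gad1 and Gad2, or with more than 2 UMIs of the myelin genes Mog and Mag were left out. The rule kept 4339 of 144991 barcodes, or 3.53% of the 122747 barcodes with at least 1000 genes.

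The hippocampi came from C57BL/6 mice of 9 months. The genotypes were WT (3 libraries), PS19 (3 libraries), CLEAR (4 libraries) and CLEAR_PS19, which carried both alleles (4 libraries). The third library of WT and of PS19 and the fourth of CLEAR and of CLEAR_PS19 came from females, the other 10 from males. PS19 mice carry a mutant human tau transgene driven by the mouse prion protein (Prnp) promoter, which is active in neurons and other cells, and are a model of tauopathy. The labels do not say which CLEAR site was mutated in CLEAR mice. As far as is known of the study, it is the TFEB binding element of Atp6v1h, which encodes the H subunit of the vacuolar ATPase, the proton pump that acidifies lysosomes. Whole-hippocampus RNA-seq of 21 further libraries covered WT and PS19 at 9 months (5 and 4 libraries) and at 4 months (6 and 6), with sex not given. Nothing in the labels says that each library came from a separate animal, so p-values measure the spread between these libraries only.

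CA3 pyramidal neurons receive the mossy fibre axons of dentate granule cells on their proximal dendrites, excite each other through recurrent collaterals, and send Schaffer collaterals to CA1. They burst readily and carry kainate-type glutamate receptors at the mossy fibre synapse. In tauopathy models the hippocampal pyramidal layers are a site of tau deposition and neuron loss.

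The libraries held 7645 to 16839 barcodes, and 169 to 483 CA3 nuclei each, with 3613015 to 10251714 UMIs in those nuclei per library. A CA3 nucleus had a median of 20417 UMIs (range 4137 to 96126) and 4973 genes (1930 to 8944). Summed CA3 counts of the 14 libraries correlated at 0.952 to 0.99 over 91 pairs on the log scale. Of those pairs, 2 shared a single cell barcode. Scrublet, a doublet caller, marked 320 of the CA3 nuclei (7.37%), and these were kept and left out only as an alternative. Among CA3 nuclei, 39 had 10 or 11 marker UMIs, just inside the threshold, and 12 barcodes with 8 or 9 marker UMIs met the other criteria, just outside it. The number of marker genes cut more: 49 to 129 barcodes per library had at least 10 marker UMIs from fewer than 4 markers and met the other criteria. The Prox1 limit alone kept out 3 to 47 barcodes per library.

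The genes that chose the nuclei are given as a description. Grik4 had a mean of 1090 CPM (counts per 1000000 UMIs of the nuclei; range over libraries 892 to 1442), against 111 CPM in CA1-like nuclei and 254.1 CPM in granule-like nuclei of the same libraries. Those comparison sets (3289 and 7278 nuclei) were picked by their own marker rules, from 5 genes for CA1, among them Mpped1, Fibcd1, Wfs1 and Man1a, and from Prox1, Glis3, Rfx3, Dsp and C1ql2 for granule cells. Both sets were also limited to nuclei with at most 1 UMI of Iyd and Ccbe1 together, so low levels of these genes there follow from the selection. Ccbe1, which encodes a secreted matrix protein, had 457.9 CPM (379.8 to 555.8), and 99.88% of the nuclei held a UMI of it. Nectin3, an adhesion molecule, had 333.6 CPM (291.2 to 370.3), and Rerg, a small GTPase, 218.8 CPM (171.5 to 269.3). Iyd, an iodotyrosine deiodinase, was the sparsest marker, with 29.66 CPM (20.32 to 45.95) and a UMI in 39.2% of the nuclei. Its mean was 0.08913 CPM in CA1-like and 1.468 CPM in granule-like nuclei, where the selection held it low.

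The label was checked with 8 genes known from CA3 that the rule did not use. At least 3 UMIs of these genes were found in 93.87% of the nuclei. For 6 of the 8, each of the 14 libraries had a higher CPM in its CA3 nuclei than any library had in CA1-like or granule-like nuclei, where 334 of 16404 genes (2.04%) did so. Prkcd, protein kinase C delta, averaged 23.12 CPM in CA3 against 0.5657 in CA1-like and 0.9437 in granule-like nuclei. Socs2, a suppressor of cytokine signalling, averaged 106.5 against 23.82 and 3.974 CPM. Plagl1, an imprinted zinc finger gene, averaged 25.12 against 2.994 and 4.943 CPM. Bok, Cdh24 and Nrip3 were the other members of the 6. Coch (3.47, 2.26 and 2.23 CPM) overlapped between the sets, and Dkk3, a secreted Wnt modulator, was higher in CA1-like nuclei (140.5 CPM) than in CA3 (106 CPM).

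**Figure D1:**
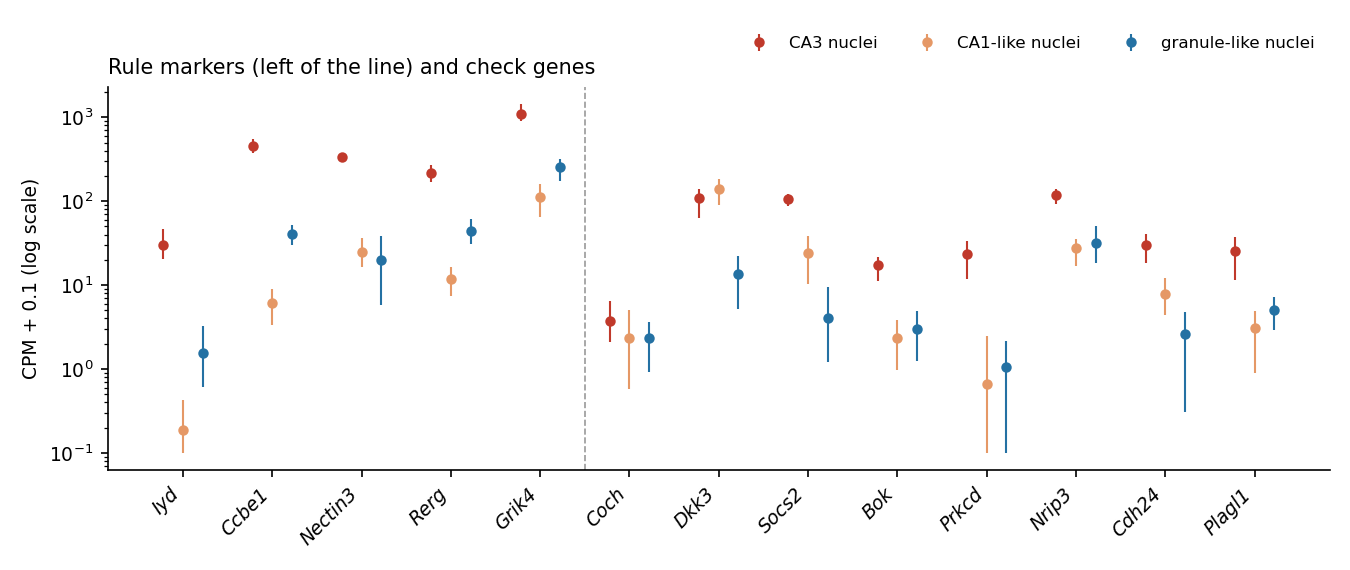
Mean CPM plus 0.1, on a log axis, of the 5 markers of the rule (left of the dashed line) and the 8 check genes (right), in CA3, CA1-like and granule-like nuclei. Iyd and Ccbe1 were held low in the CA1-like and granule-like sets by their selection. Bars span the lowest to the highest of the 14 libraries; Prkcd stands at 23.12 CPM in CA3 and below 1 CPM in both other sets, while Dkk3 is higher in CA1-like nuclei (140.5 CPM) than in CA3 (106 CPM).

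Genes listed for other cells were detected in the CA3 nuclei, in several lists mostly through 1 gene. Pooled over the CA3 nuclei, Rfx3 of the granule cell list had 137 CPM, against 0.475 for Dsp. Man1a of the CA1 list had 118 CPM, against 0.929 for Fibcd1. Slc1a2 of the astrocyte list had 318 CPM (Aqp4 0.865), and P2ry12 of the microglia list 112 CPM (Csf1r 1.75). At least 10 UMIs of the granule cell list were found in 7.237% of the CA3 nuclei, and of the CA1 list in 6.084%. The CA2 list reached 10 UMIs in 0.5531%, the mossy cell list in 2.259% and the inhibitory neuron list in 0.5992%. The oligodendrocyte list reached 10 UMIs in 9.979% and the microglia list in 4.517%. The astrocyte list reached 10 UMIs in 36.46%, and 2 of its 9 measured genes were higher in CA3 than in both neuron sets without overlap (2.04% of all genes were): the glutamate transporter Slc1a2 (322.3 CPM against 79.26 and 134.1) and the neurotensin receptor Ntsr2 (24.63 against 4.913 and 5.113). The choroid plexus list reached 10 UMIs in 0 of 4339 nuclei. Of the CA2 genes, Amigo2 was higher in CA3 (8.151 CPM against 0.4648 and 1.61) and Rgs14 lower (4.045 against 13.48 and 11.36), each 1 of 7, where 2.04% of all genes were higher and 2.31% lower. Of the 5 hilar mossy cell genes, Csf2rb2 averaged 8.313 CPM (0.5236 to 16.02 over libraries) in CA3 against 0.0537 and 0.119, Calb2 2.85 (0.2618 to 10.63) against 0.2972 and 0.2651, and Drd2 1.895 (0.1581 to 3.794) against 0.4716 and 0.1199. All 3 had a higher mean in CA3 than in both sets, with ranges that overlapped. Ociad2, the most abundant gene of that list, was higher in CA1-like nuclei (144.2 CPM) than in CA3 (108.1 CPM), and Glp1r was higher in granule-like nuclei (5.903 CPM) than in CA3 (4.501 CPM, 0.4107 to 24.61) or CA1-like nuclei (3.021 CPM). Whether the gate held mossy cells was not resolved. Which part of these UMIs came from other cells, as free RNA or otherwise, was not tested.

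Among genes of at least 50 CPM, several nuclear and membrane proteins marked CA3 without having been used by the rule. These levels describe nuclei selected on other CA3 genes and have no test. Trps1, a GATA-type repressor, had 1218 CPM (1062 to 1488) in CA3, against 76.56 in CA1-like and 66.99 in granule-like nuclei. Mndal, an interferon-inducible nuclear protein gene, had 55.74 CPM (30.11 to 71.66) against 1.213 and 2.691. Elavl2, a neuronal RNA-binding protein, had 327.2 CPM against 87.02 and 16.46. The proteoglycan gene Spock1 had 908.6 CPM against 82.06 and 33.78, the heparan sulphate enzyme gene Hs3st4 2077 against 397.1 and 189.8, and Pde4d, a cAMP phosphodiesterase, 2610 against 648.4 and 378. Unc5c, a netrin receptor of axon guidance, had 1575 against 396.4 and 402.6 CPM.

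Other genes were low in CA3 nuclei. In all 14 libraries Bcl11b (26.34 CPM against 205.3 in CA1-like and 212.4 in granule-like nuclei), a zinc finger factor of granule and CA1 neurons, was lower than in any library of both other sets. Zfhx4 (9.078 against 103.8 and 94.05 CPM), a homeobox factor, did the same. So did Nrg1, the ErbB receptor ligand neuregulin 1, with 106.3 CPM against 1477 and 1094, and Spon1, an extracellular matrix protein, with 24.94 against 229.5 and 265.7. Lower levels without overlap were found for 379 of 16404 genes (2.31%).

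Receptors and channels differed in a few members each, read against 2.04% of all genes higher and 2.31% lower without overlap. Of 6 other kainate receptor genes, 1 was higher in CA3 without overlap: Neto1, the auxiliary subunit that sets receptor kinetics, with 823.2 CPM (696.2 to 956) against 187.2 and 217.9. Grik2, the pore-forming subunit, had 1693 CPM in CA3, 864 in CA1-like and 2023 in granule-like nuclei, and its CA3 range of 1383 to 2077 overlapped that of granule-like nuclei (1465 to 2698). Of 16 AMPA and NMDA receptor genes, the auxiliary subunits Shisa6 (1317 CPM against 782.8 and 619.7) and Cacng2, or stargazin (93.62 against 32.35 and 49.67), were higher. The auxiliary subunits Cnih3 (10.56 against 75.93 and 132.7), Cacng3 (53 against 134.7 and 144.7) and Shisa9 (38.86 against 134.8 and 653.4) were lower, as was the NMDA receptor subunit Grin3a (12.55 against 93.84 and 37.09). Of 16 GABA-A receptor and chloride transport genes, none was higher and 3 were lower. Among the lower ones were the receptor subunits Gabrb2 (151.6 CPM against 266.4 and 425.9) and Gabrd (0.9105 against 5.297 and 29.67).

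The potassium channel gene Kcnq5, an M-current subunit, reached 4051 CPM (3486 to 4596) in CA3, against 845.6 in CA1-like and 90.92 in granule-like nuclei. Kcnc2, which encodes the fast Kv3.2 channel, had 731.4 against 434 and 24.2 CPM. The A-type channel gene Kcnd2 (1744 against 4177 and 3651) and the ERG-type channel gene Kcnh7 (45.55 against 1558 and 295.1) were lower. In all, 2 of 26 potassium channel genes were higher and 3 lower (all genes 2.04% and 2.31%). Of 21 sodium, calcium and HCN channel genes, 1 was higher and 1 lower (4.76% each, all genes 2.04% and 2.31%). The higher one was Cacna1a, the P/Q-type calcium channel of release sites (1022 CPM against 471.2 and 382.6). Of 31 release genes 4 were higher, or 12.9% against 2.04% of all genes: the active zone protein Pclo (777.9 against 540.8 and 460), Cplx1 (29.5 against 17.56 and 15.98), Syn2 (796 against 533.4 and 571.1) and Nrxn3 (7153 against 4512 and 2101). The vesicle GTPase gene Rab3b (1.196 CPM against 7.72 and 4.181) and Syn3, another synapsin (37.89 against 115.1 and 289.4), were the 2 lower ones (6.45% against 2.31%). None of 18 V-ATPase subunit genes, 22 cholesterol genes or 29 respiratory chain genes was higher or lower without overlap. Of 53 lysosomal genes 1 was higher (1.89%, near the 2.04% of all genes), the beta-mannosidase gene Manba (34.6 CPM against 12.16 and 8.369).

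CA3 nuclei also differed among themselves. Variation was measured as the variance of clipped Pearson residuals within a library, averaged over the 14 libraries, for 5332 genes with at least 0.3 UMIs per nucleus. A gene with no more than counting noise, at a small fixed overdispersion, has a variance near 1. Sgcd, which encodes delta-sarcoglycan, ranked first with 26.3 (18.3 to 34.7 over libraries). Gabrg3, a GABA-A receptor subunit gene, was at rank 3 with 23.8 (5.49 to 33.9), Kcnq5 at rank 4 with 22.1 and the heparan sulphate enzyme gene Hs6st3 at rank 5 with 20.7. The markers of the rule ranked lower: Grik4 was at rank 457, Ccbe1 at 578, Nectin3 at 584, Rerg at 688 and Iyd at 919.

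These variable genes fell into sets, chosen after their values were seen and described without a test. With Sgcd, the median correlation across nuclei over the libraries was 0.888 for the GABA-A receptor subunit Gabrg3, 0.854 for the zinc finger gene St18, 0.789 for the netrin receptor Unc5d and 0.71 for Lrp1b, while it was -0.407 for Kcnq5. St18 was also in the oligodendrocyte list. With Hs6st3 it was 0.67 for Trps1, 0.612 for the contactin Cntn4 and 0.604 for Lingo2. Kcnq5 correlated at 0.65 with Neto1 and at -0.549 with the ephrin receptor Epha7. The points are nuclei of 1 library, which share its preparation and differ in depth. Sgcd was hardly related to the marker Grik4 (-0.0269) and was lower where Nectin3 was higher (-0.237).

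Nuclei with more than 5 Sgcd UMIs per 10000 UMIs made up 21.7, 26.9 and 26.7% of CA3 nuclei in the WT libraries and 16.9, 24.9 and 33.8% in PS19. They made up 24.8, 26, 28 and 30.1% in CLEAR and 31.3, 30.5, 27.9 and 31.4% in CLEAR_PS19. Between 20.1 and 37.6% of the nuclei of a library had 3 to 7 such UMIs, near that value. The value is a chosen cut, and whether the nuclei above it are a cell type of their own was not tested. High Sgcd nuclei were found in every library, and the genotypes overlapped except that CLEAR_PS19 lay above WT. The summed level of the 10 genes most correlated with Sgcd, Sgcd included, ranged from 5838 to 6805 CPM over WT, from 5151 to 6270 over PS19, from 5922 to 6825 over CLEAR and from 5717 to 6558 over CLEAR_PS19 libraries. None of the 10 genes of any of the 3 sets passed the genotype tests described next.

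The share of CA3 nuclei among barcodes with at least 1000 genes asked whether these neurons were fewer with the tau transgene or the CLEAR mutation. It was 3.95, 4.82 and 3.92% in the WT libraries and 3.36, 1.83 and 3.22% in PS19 (4.23 ± 0.513 and 2.80 ± 0.847, mean ± SD, n = 3 each). It was 3.32, 3.22, 3.99 and 3.34% in CLEAR and 4.27, 3.65, 2.75 and 3.99% in CLEAR_PS19 (3.47 ± 0.356 and 3.67 ± 0.663, n = 4 each). The 3 PS19 libraries lay below the 3 WT libraries, while CLEAR_PS19 overlapped CLEAR. Over both backgrounds the share was 0.615 percentage points lower with tau (exact two-sided permutation test within CLEAR status, p = 0.189, adjusted over 2 tests 0.377), and 0.0503 points higher with CLEAR (p = 0.907, adjusted 0.907). Neither difference exceeded the spread between libraries. The tau difference was -0.372 points without PS19 replicate 2. Within sets of libraries with alike granule-like sums it was -0.188 points (exact permutation within these sets, p = 0.522). PS19 replicate 2 was the only library of its set, so this value leaves that library out as well. As a share of glutamatergic barcodes WT and PS19 averaged 8.23 and 7.76%, and CLEAR and CLEAR_PS19 6.82 and 7.36%, and the tau difference turned to 0.0372 points higher (exact permutation p = 0.947). As a further alternative, the 93867 barcodes with at least 3000 UMIs were thinned to 3000. The gate was scaled down to at least 3 marker UMIs of at least 2 genes, without the Slc17a7 criterion. It took 5424 barcodes, of which 2930 were CA3 nuclei of the rule, so it did not count the same nuclei. The means of this gate were 6.30, 4.38, 5.60 and 6.44% (tau 0.543 points lower, exact permutation p = 0.443).

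**Figure D2:**
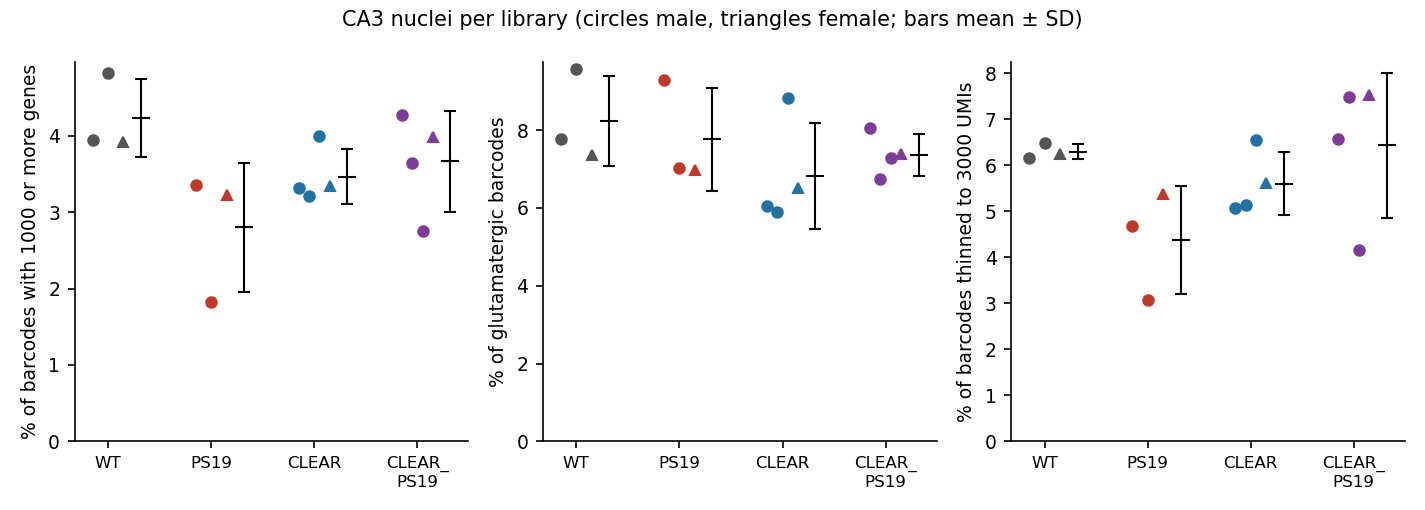
CA3 nuclei as a percentage of barcodes with at least 1000 genes (left), of glutamatergic barcodes (middle) and of barcodes thinned to 3000 UMIs (right), 1 point per library, with circles for males, triangles for females and bars for the mean ± SD. The right panel counts the scaled-down gate, which took 5424 barcodes, 2930 of them CA3 nuclei of the rule. In the left panel the 3 PS19 libraries (1.83 to 3.36%) lie below the WT libraries (3.92 to 4.82%), and the CLEAR and CLEAR_PS19 points overlap.

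Gene by gene, the tau transgene was compared with its absence over both CLEAR backgrounds in 1 fit of the summed CA3 counts of all 14 libraries, with sex as a covariate (edgeR's quasi-likelihood test, Benjamini-Hochberg adjusted p under 0.05). Of 14923 genes tested, 9 passed (0.0603%), 5 higher and 4 lower. Prnp, Ctss, C1qa and 2 unnamed gene models on chromosome 3 were higher with tau, and Bmpr1b, Tmem200a and Msmo1 were among the lower genes. With the replicate number as a block, which pairs libraries with and without tau, 23 genes passed (0.154%), and with separate pairs on each CLEAR background, an alternative chosen after seeing the data, 25 passed (0.168%). The genes named here passed in both of these fits. Values in the next paragraphs are CPM with TMM-adjusted library sizes, and log2 differences carry their standard error (SE).

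Prnp, the prion protein gene whose promoter drives the transgene (chromosome 2, 131909928 to 131938429, plus strand, mm10), served as the check of the labels. It had 44.3, 49.8 and 37.8 CPM in WT and 81.2, 93.4 and 78.2 in PS19. It had 50.7, 46.8, 39.3 and 38.2 CPM in CLEAR and 111, 112, 102 and 78 in CLEAR_PS19. All 7 tau libraries were above all 7 others, and the log2 difference was 1.07 (SE 0.0742, edgeR adjusted p = 4.3e-07). Whether these reads came from the endogenous gene or from prion gene sequence in the transgene was not tested. Mouse Mapt, which encodes tau itself, did not pass (log2 -0.02, edgeR adjusted p = 1), with 348 to 358 CPM in WT and 343 to 370 CPM in PS19.

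The unnamed gene models Gm43049 (chromosome 3, 140692038 to 140760704, minus strand) and Gm32754 (140904998 to 140917459, minus strand) were named after their values were seen. Gm43049 had 0 UMIs in the WT libraries and 94 to 176 CPM in PS19, which is at least 1100-fold higher against a floor of 3 counts over the WT group. It had 2 UMIs in all CLEAR libraries and 3666 in CLEAR_PS19 (92.8 to 166 CPM). Gm32754 had no UMI in the 7 libraries without tau, and 8.79 to 28.3 CPM in those with it, at least 135-fold higher in PS19 and at least 112-fold higher in CLEAR_PS19 against the same floor.

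Bmpr1b encodes a type I receptor for bone morphogenetic proteins and lies 919677 bases from Gm32754 on the same chromosome (141837136 to 142169425, minus strand). It had 8.87, 14.9 and 11.3 CPM in WT and 3.96, 2.2 and 2.08 in PS19. It had 12.5, 9.52, 12.7 and 4.05 CPM in CLEAR and 4.02, 4.53, 2.25 and 1.16 in CLEAR_PS19. Every tau library except CLEAR_PS19 replicate 2 lay below every library without tau, and the log2 difference was -1.82 (SE 0.231, edgeR adjusted p = 0.0016). Its neighbours did not pass: Unc5c, between it and Gm32754, differed by -0.15 and the PDZ and LIM protein gene Pdlim5 by -0.10, both at an edgeR adjusted p of 1. Tmem200a, a membrane protein gene on chromosome 10 (25912331 to 26079052, minus strand), fell by 0.42 on the log2 scale (SE 0.0696, edgeR adjusted p = 0.0291), from 76.4 to 82.2 CPM in WT to 49.5 to 55.4 in PS19, while CLEAR (59.6 to 82.4) overlapped CLEAR_PS19 (58.7 to 64.2). Leaving out 1 library at a time ended the Tmem200a call in 10 of 14 cases, with adjusted p up to 0.124.

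Ctss, the lysosomal protease cathepsin S, and C1qa, a chain of complement C1q, were the other genes that rose with tau, and both are best known from microglia. Ctss (chromosome 3, 95526786 to 95556403, plus strand) had 0.796, 1.29 and 1.61 CPM in WT and 5.35, 6.6 and 4.77 in PS19. In CLEAR it had 2.36, 1.36, 1.78 and 2.29 CPM, against 4.48, 4.41, 6.92 and 3.47 in CLEAR_PS19. All tau libraries were higher than all others, by 1.75 on the log2 scale (SE 0.221, edgeR adjusted p = 0.0016). C1qa (chromosome 4, 136895917 to 136898803, minus strand) was at 1.02, 1.18 and 1.78 CPM in WT and at 5, 6.6 and 3.32 in PS19. It was at 0.505, 0.85, 1.37 and 1.41 CPM in CLEAR and at 2.99, 4.17, 4.34 and 1.73 in CLEAR_PS19. The tau libraries were higher except for CLEAR_PS19 replicate 4, which lay just below the highest WT library, and the log2 difference was 1.79 (SE 0.27, edgeR adjusted p = 0.0125). Without WT replicate 1, WT replicate 2 or PS19 replicate 1 the C1qa call was lost, with adjusted p of 0.0781, 0.0706 and 0.0613.

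Values for microglia stand beside these results. Over barcodes with at least 1000 genes Ctss had 20.94 CPM and C1qa 16.43 CPM, against 3.26 and 2.52 CPM in CA3 nuclei. Of the 10 microglia genes tested in CA3, 8 were higher with tau (median log2 0.22, all genes 0.00) and 2 passed, Ctss and C1qa, where 9 of all 14923 genes passed (0.0603%). Csf1r, the receptor that defines the lineage, had 1.22 to 1.98 CPM over WT, 0.785 to 3.08 over PS19, 1.09 to 2.41 over CLEAR and 1.07 to 2.66 over CLEAR_PS19 libraries. Cd74 was at 0 in 3 libraries. Summed over the list, WT libraries had 130 to 220 CPM and PS19 libraries 197 to 241, CLEAR libraries 153 to 203 and CLEAR_PS19 libraries 163 to 211. Most of this was P2ry12, with 112 CPM in CA3 nuclei and 128.6 CPM over barcodes with at least 1000 genes. The sums and the percentages that follow thus weigh P2ry12 most and say little of the other microglia genes. CA3 nuclei with at least 10 microglia UMIs accounted for 1.01 to 5.94% per WT library, 2.96 to 12.8% per PS19, 2.13 to 7.41% per CLEAR and 1.16 to 7.08% per CLEAR_PS19 library. The tau difference of Ctss was 1.42 in CA1-like and 1.47 in granule-like nuclei (edgeR adjusted p = 0.115 and 0.00299), and that of C1qa 1.61 and 1.70 (0.0655 and 0.00386). The part of microglial RNA in the Ctss and C1qa results was not tested.

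**Figure D3:**
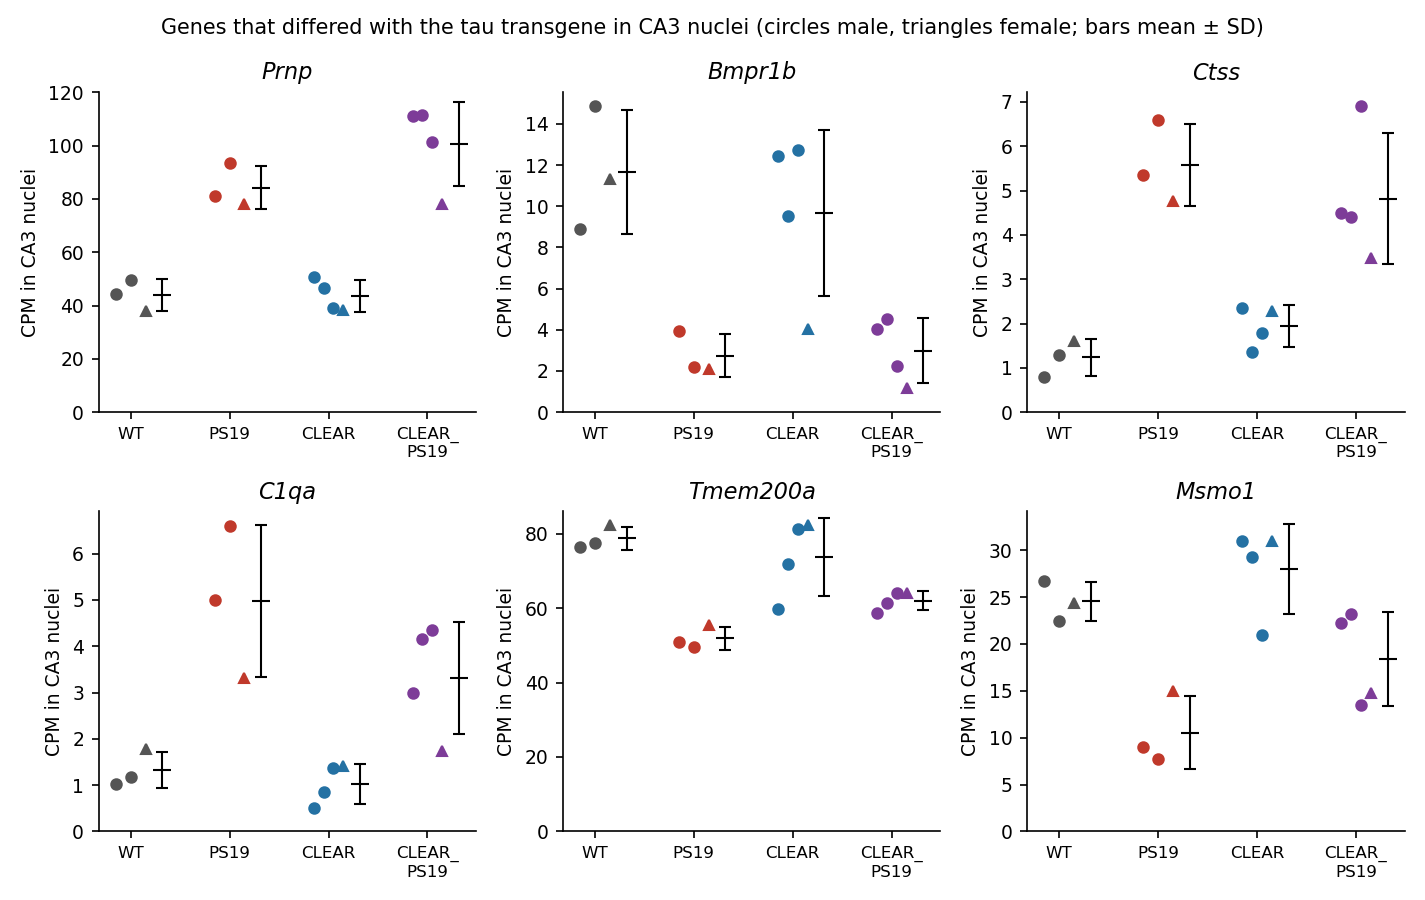
CPM per library in CA3 nuclei of Prnp, Bmpr1b, Ctss, C1qa, Tmem200a and Msmo1, with circles for males, triangles for females and bars for the mean ± SD of each genotype. The PS19 and CLEAR_PS19 points lie above the others for Prnp and Ctss, and the 3 PS19 points of Msmo1 (7.7 to 14.9 CPM) lie below all 3 WT points (22.5 to 26.7 CPM).

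Cholesterol genes were also among the calls. Neurons take up cholesterol and make some of their own, and the genes of both routes are under the transcription factor SREBP2, the product of Srebf2. Msmo1, the methylsterol monooxygenase of the late synthesis steps (chromosome 8, 64718139 to 64733792, minus strand), had 26.7, 22.5 and 24.4 CPM in WT and 8.96, 7.7 and 14.9 in PS19. It had 31, 29.2, 20.9 and 31 CPM in CLEAR and 22.2, 23.2, 13.5 and 14.7 in CLEAR_PS19. PS19 lay below WT without overlap, and CLEAR_PS19 overlapped the lowest CLEAR library, with a log2 difference of -0.89 (SE 0.155, edgeR adjusted p = 0.0427). This call was lost in 10 of 14 fits that left out a library (adjusted p up to 0.27), and it was kept without PS19 replicate 3, CLEAR replicate 3, CLEAR_PS19 replicate 1 or CLEAR_PS19 replicate 2.

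The promoters of 3 genes of this list are shown for short motifs of the known regulators of the list. Msmo1 passed the tau test, while Hmgcs1 and Insig1 did not (log2 -0.41 and -0.54, edgeR adjusted p = 0.884 and 0.976). The sequences are the 250 bases before the start in the RefSeq table for GRCm38.p6, written 5' to 3' along the gene: Hmgcs1 at chr13:119690101-119690350 on the plus strand, Insig1 at chr5:28071162-28071411 on the plus strand, and Msmo1 at chr8:64733579-64733828 on the minus strand. Capitals mark a match to the sterol regulatory element searched for (TCACNCCAC) or to the E-box CACGTG, which is part of the CLEAR element.
Hmgcs1: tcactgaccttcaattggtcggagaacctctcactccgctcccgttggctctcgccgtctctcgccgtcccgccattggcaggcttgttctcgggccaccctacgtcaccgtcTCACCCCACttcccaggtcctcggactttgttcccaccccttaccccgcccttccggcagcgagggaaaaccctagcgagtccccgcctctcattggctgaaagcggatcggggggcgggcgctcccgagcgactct
Insig1: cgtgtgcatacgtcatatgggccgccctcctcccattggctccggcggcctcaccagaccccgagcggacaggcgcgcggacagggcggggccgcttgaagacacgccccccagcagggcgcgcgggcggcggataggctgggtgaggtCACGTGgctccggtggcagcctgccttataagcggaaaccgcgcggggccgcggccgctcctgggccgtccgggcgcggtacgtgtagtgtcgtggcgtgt
Msmo1: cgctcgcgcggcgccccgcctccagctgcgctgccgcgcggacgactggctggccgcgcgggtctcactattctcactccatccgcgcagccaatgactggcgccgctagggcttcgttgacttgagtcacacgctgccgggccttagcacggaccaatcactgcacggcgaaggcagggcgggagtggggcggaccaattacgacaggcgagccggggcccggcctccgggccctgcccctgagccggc
Both strands were searched, and the E-box reads the same on both. The sterol element was found in 346 of 32851 promoters of this length (1.05%) and in 1 of 20 promoters of 15 cholesterol genes of the table, that of Hmgcs1. The E-box was found in 1978 (6.02%) of all and in 4 of the 20, those of Dhcr7, Hsd17b7, Insig1 and Sc5d, and CCAAT in 11120 (33.8%) and 16. The Msmo1 window held 3 CCAAT and neither other motif. These are letters in a window, and binding was not measured.

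Of 22 cholesterol genes tested, 21 were lower with tau in CA3 nuclei. Of these, 2 passed, Msmo1 among them, where 9 of all 14923 genes passed (0.0603%). An unadjusted p under 0.05 was found for 12 of the 22, where 794 of all genes had one (5.32%). The list's median log2 difference was -0.35, where that of all genes was 0.00. Fdft1, which encodes squalene synthase, had 20.1 to 23.8 CPM in WT and 11.4 to 14.5 in PS19 (-0.59, edgeR adjusted p = 0.38). With the replicate block 3 of the 22 passed, where 23 of all genes did (0.154%), and Fdft1 was one of them (-0.62, edgeR adjusted p = 0.00494). Hmgcs1, an early enzyme of the pathway, had 25.9, 13.1 and 17.8 CPM in WT and 11.3, 13.2 and 19.9 in PS19 (-0.41, edgeR adjusted p = 0.884). Srebf2 itself had 52.8 to 71.9 CPM in WT and 42 to 57.3 in PS19 (-0.28, edgeR adjusted p = 0.375). Srebf1, which encodes the relative that acts mainly on fatty acid genes, was the exception at 0.16.

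The summed level of the cholesterol genes was 357, 286 and 332 CPM in WT and 203, 203 and 267 in PS19. It was 376, 366, 300 and 377 CPM in CLEAR and 329, 337, 223 and 279 in CLEAR_PS19. The PS19 libraries lay below WT, and 2 of the 4 CLEAR_PS19 libraries lay below every CLEAR library. On the WT background 21 of 22 genes were lower with tau (median -0.46), and on the CLEAR background 19 (median -0.20). None of the 22 passed on either background, and with the replicate block 3 passed on the WT background, among them Msmo1 and Fdft1 (edgeR adjusted p = 0.00802 and 0.0166), where 21 of all genes did (0.141%). With CLEAR, 19 of 22 were higher (median 0.29, all genes 0.01) and none passed. An unadjusted p under 0.05 was found for 9 of the 22, where 1573 of all 14923 genes had one (10.5%). CLEAR libraries 1 and 2 and CLEAR_PS19 libraries 1 and 2 formed a set of their own in the CA3 sums. With these sets as a block the number higher with CLEAR was 14 (median 0.111), and among the 6 libraries of the largest male set it was 12 (median 0.0662). The number lower with tau was 20 to 22 in every alternative run.

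**Figure D4:**
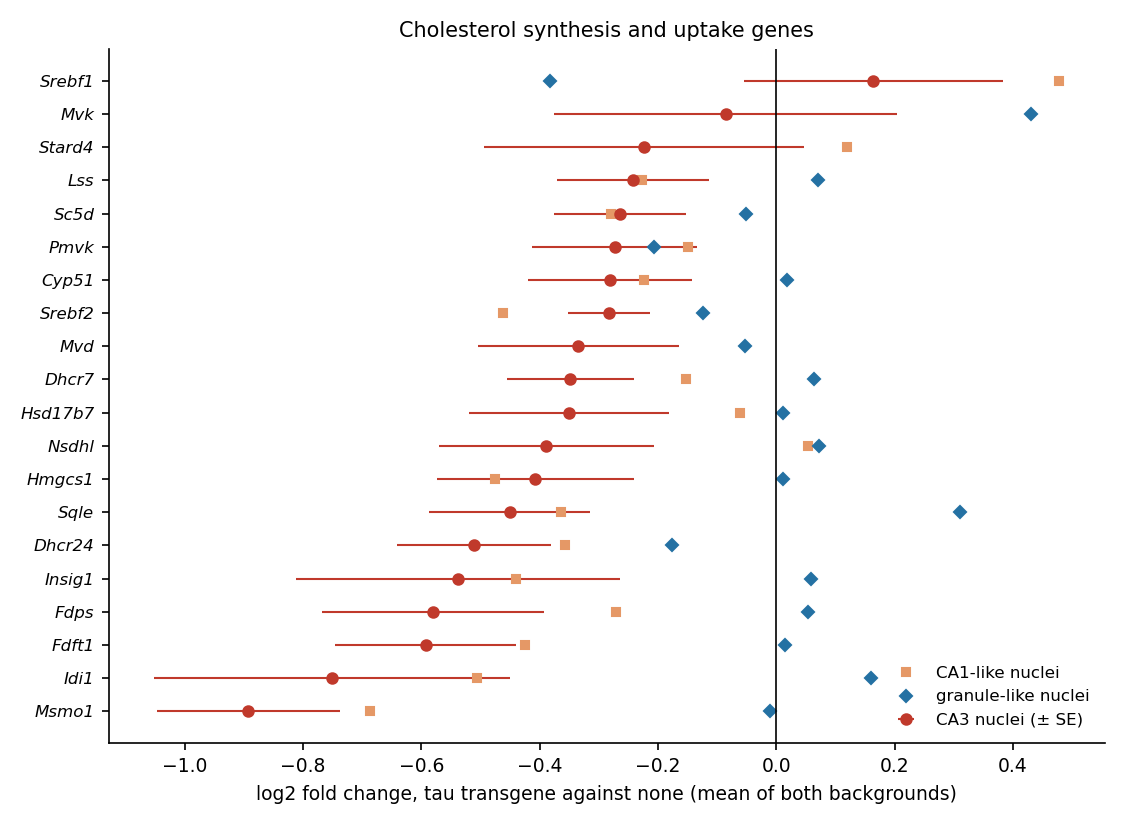
Log2 difference with the tau transgene, over both CLEAR backgrounds, of 20 cholesterol genes in CA3 (circles, ± SE), CA1-like (squares) and granule-like nuclei (diamonds), ordered by the CA3 value from Msmo1 (-0.89) to Srebf1 (0.16). In CA3 nuclei 19 of these 20 lie below 0, while in granule-like nuclei 12 lie above 0 and 7 below.

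In CA1-like nuclei 17 of 20 cholesterol genes with a value were lower with tau (median -0.32), and in granule-like nuclei 8 of 21 (median 0.01). The difference between CA3 and granule-like nuclei of the same libraries was tested with the library as a block. It was negative for 21 of 22 genes (median -0.47) and passed for 3, where 77 of 15591 genes passed (0.494%). Among these were Msmo1 (-0.87, SE 0.13, edgeR adjusted p = 0.0015) and Stard4, a sterol carrier (-2.19, SE 0.4, edgeR adjusted p = 0.0121). Stard4 was sparse in granule-like nuclei, at 0.815 CPM. Msmo1 had 8.85, 11 and 8.69 CPM in WT granule-like nuclei and 7.41, 6.5 and 9.89 in PS19, with means of 9.69 in CLEAR and 11 in CLEAR_PS19. Against CA1-like nuclei 17 of 22 genes had a lower tau difference in CA3 (median -0.17) and none passed.

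In all, 77 genes, the 3 cholesterol genes included, differed in their response to tau between CA3 and granule-like nuclei, 29 with a higher and 48 with a lower value in CA3. This balance depended on the method: DESeq2's Wald test gave 59 higher and 40 lower, and males only gave 28 and 28. Of 18 named genes among the 77 outside the cholesterol list, none passed in CA3 alone, where their differences ran from -0.49 (Fosl2) to 0.26 (Cnih3). In granule-like nuclei alone, 168 of 14550 genes passed for tau (1.15%). Hpca, the neuronal calcium sensor hippocalcin, had 85.5, 99.2 and 118 CPM in WT CA3 nuclei and 86.2, 76.4 and 113 in PS19. In granule-like nuclei it had 27.3, 28.1 and 40.8 CPM in WT and 60.9, 46.1 and 74.7 in PS19. On the CLEAR background it had 93 to 121 CPM without tau and 83.2 to 120 with it in CA3, and 36 to 38.7 and 50.6 to 65.7 CPM in granule-like nuclei. With and without tau the libraries overlapped in CA3 on both backgrounds and in granule-like nuclei on neither, and the tau difference was -0.10 in CA3, 0.77 in granule-like nuclei and -0.84 between them (SE 0.0823, edgeR adjusted p = 7.73e-06).

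Nrip3, a nuclear receptor-interacting protein gene and one of the CA3 check genes, also passed. It had 127 to 134 CPM in WT and 121 to 145 in PS19 in CA3, and 19.1 to 25.8 and 40.9 to 52.6 CPM in granule-like nuclei. In CLEAR and CLEAR_PS19 it had 87.6 to 131 and 96.9 to 127 CPM in CA3, and 19.3 to 25.4 and 26.6 to 52.4 CPM in granule-like nuclei (difference -0.80, SE 0.0991, edgeR adjusted p = 0.000197). Channel, receptor and calcium genes on the same side were Cnih3 (-0.62), the potassium channel Kcnh5 (-0.49), the T-type calcium channel Cacna1g (-0.98), the kinase Camk4 (-0.83) and the glutamate receptor scaffold Homer2 (-0.66). Their tau differences in CA3 alone ran from -0.27 (Cacna1g) to 0.26 (Cnih3). The ubiquitin ligase gene Hectd2 (-0.91) and Hectd2os on its other strand (-0.96) also passed, and their reads cannot be told apart if strand was not used in counting. Sidt1 (-0.51), a nucleic acid transporter family gene, the AP-1 factor Fosl2 (-1.20) and the stathmin Stmn4 (-0.60) completed the named genes with lower values in CA3. The calls of Stmn4 and Fosl2 were lost in 11 and 10 of 14 fits that left out a library, that of Cacna1g in 5 and that of Kcnh5 in 2.

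The named genes with a higher tau difference in CA3 had lower values with tau in granule-like nuclei, averaged over both backgrounds. The Hippo pathway factor Tead1 had 203 to 246 CPM in WT and 136 to 163 in PS19 granule-like nuclei, and 221 to 312 against 211 to 292 in CA3. On the CLEAR background its granule-like ranges overlapped (158 to 234 CPM in CLEAR, 151 to 172 in CLEAR_PS19). In CA3 Tead1 had 200 to 341 CPM in CLEAR and 311 to 346 in CLEAR_PS19, with a tau difference of 0.39 there and of -0.07 on the WT background, neither called. Averaged over both backgrounds, the tau difference was 0.57 higher in CA3 than in granule-like nuclei (SE 0.082, edgeR adjusted p = 0.00114). Unc5c (0.32), the netrin relative Ntng2 (0.48), the nuclear receptor Pparg (0.55), the ubiquitin ligase March1 (0.50) and the kainate receptor subunit Grik2 (0.25) followed. Of these 6 genes, 4 passed in granule-like nuclei alone (Tead1, Unc5c, Pparg and March1) and none in CA3.

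For the difference in response to tau between CA3 and CA1-like nuclei, 0 of 15195 genes passed (0%), with 987 at an unadjusted p under 0.05 and 0 by DESeq2. Some other settings called genes: 14 without Scrublet doublets, 5 with the stricter gate and 156 with no filter on low counts. In the reported fit, the genes with the smallest p were the carbonic anhydrase gene Car4 (difference -0.83, edgeR adjusted p = 0.0952) and Unc5c (0.34), Xirp2 (-1.76), Inpp4b (-0.49) and Tead1 (0.65), each at 0.108. In CA1-like nuclei alone 6 of 13841 genes passed for tau (0.0433%).

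Within single backgrounds, 5 genes (0.0335%) passed between PS19 and WT in CA3 nuclei: Prnp (0.94), Gm43049, Gm32754, Ctss (2.18, edgeR adjusted p = 0.0222) and Adarb2. Adarb2, a brain RNA-editing enzyme relative, had 30.2, 42.3 and 27 CPM in WT and 9.77, 8.52 and 14.9 in PS19, a fall of the group without overlap (-1.64, SE 0.255, edgeR adjusted p = 0.0222). It had 13.6, 19.9, 23 and 32.9 CPM in CLEAR and 18.8, 24.5, 24 and 32.7 in CLEAR_PS19, which overlapped. The Ctss and Adarb2 calls were each lost in 4 of 14 fits without a library. Bmpr1b did not pass here (-2.04, 0.0624). With the replicate block 21 genes passed (0.141%), Bmpr1b (edgeR adjusted p = 0.013) and Tmem200a (0.0119) among them. Between CLEAR_PS19 and CLEAR 3 genes passed (0.0201%), Prnp (1.20, edgeR adjusted p = 4.61e-06) and both unnamed models. The next were the serine incorporator gene Serinc2 (0.71, 0.057) and the Hippo pathway gene Sav1 (2.17, 0.0726). With the replicate block 8 genes passed (0.0536%), among them Bmpr1b, Serinc2 and Sav1 (edgeR adjusted p = 0.0288, 0.0172 and 0.0053).

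Apart from the cholesterol, microglia and transgene lists, no gene list gave a called gene for tau in CA3 nuclei. Of 28 activity-induced genes 22 were lower and 7 had an unadjusted p under 0.05 (median -0.23), against 5.32% of all genes, among them the phosphatase gene Dusp1 (-0.83) and the transcription factors Npas4 (-0.76) and Egr1 (-0.71). Of 13 interferon and MHC class I genes 11 were higher (median 0.26), with B2m at 0.66 (edgeR adjusted p = 0.822). For Ifit1 (1.22), 2 libraries stood out, PS19 replicate 2 at 17.6 CPM and CLEAR_PS19 replicate 4 at 6.94 CPM. V-ATPase subunits split 14 higher to 4 lower (median 0.05). Of the 52 tested genes of the lysosomal list none passed, with the tetraspanin Cd63 at 0.78 (edgeR adjusted p = 0.557), cathepsin D (Ctsd) at 0.45 and Lamp2 at 0.20. The lysosomal protease gene Ctss, which passed, was counted in the microglia list. Respiratory chain genes split 14 to 15 (median -0.01), stress response genes 10 to 10, potassium channels 11 to 15 and release genes 12 to 19. Of 9 oligodendrocyte genes 8 were higher (median 0.34), and that list summed to 136 to 170 CPM in WT and 164 to 195 in PS19, 143 to 183 in CLEAR and 153 to 234 in CLEAR_PS19. The 6 tested genes of the granule cell list were all lower (median -0.29), and 6 of 7 astrocyte genes were lower (median -0.13).

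The genes of hilar mossy cells, the excitatory neurons next to CA3, were also compared. Csf2rb2 had 8.08 to 15.5 CPM in WT and 0.524 to 6.57 in PS19, Drd2 1.55 to 3.79 and 0.338 to 1.03, and Calb2 1.33 to 5.28 and 0.262 to 1.23. The PS19 range lay below the WT range for these 3 genes, a description given without the share of all genes that did so. In CLEAR and CLEAR_PS19 the ranges overlapped, at 6.88 to 16 and 1.42 to 13.3 CPM for Csf2rb2, 2.07 to 2.91 and 0.158 to 3.32 for Drd2, and 1.2 to 5.34 and 0.632 to 10.6 for Calb2. Over both backgrounds the differences were -1.12 for Csf2rb2, -1.22 for Drd2 and -0.59 for Calb2 (edgeR adjusted p = 0.721, 0.729 and 1). Of the 5 genes 3 were lower (median -0.59), and 3 had an unadjusted p under 0.05 (all genes 5.32%), namely Csf2rb2, Drd2 and Glp1r, which had a higher fitted value with tau (2.02, edgeR adjusted p = 0.721). Glp1r overlapped between the genotypes, with 0.944 to 1.48 CPM in WT, 0.411 to 24.6 in PS19, 0.534 to 5.68 in CLEAR and 0.474 to 9.96 in CLEAR_PS19. The list summed to 116 to 121 CPM in WT, 114 to 137 in PS19, 125 to 136 in CLEAR and 87.5 to 148 in CLEAR_PS19, most of it Ociad2. The part of mossy cells in the tau results was not tested.

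The CLEAR mutation was compared with its absence over both tau backgrounds in the same fit. A single gene of 14923 passed (0.0067%), Atp6v1h itself, the V-ATPase H subunit gene (chromosome 1, 5070018 to 5162529, plus strand). In CA3 nuclei it had 114, 119 and 105 CPM in WT and 126, 107 and 111 in PS19. It had 61.3, 63.9, 65.5 and 58.8 CPM in CLEAR and 57.6, 66.5, 74.3 and 64.7 in CLEAR_PS19. Every CLEAR library was below every library without the mutation, by -0.84 on the log2 scale (SE 0.0671, edgeR adjusted p = 1.14e-05). The level was 44.6% lower in CLEAR than in WT (62.4 ± 2.96 against 113 ± 7.47 CPM, SD, n = 4 and 3) and 42.7% lower in CLEAR_PS19 than in PS19 (65.8 ± 6.86 against 115 ± 9.92).

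The fall was set beside that of the other neurons of the same libraries. In CA1-like nuclei Atp6v1h was 37% lower in CLEAR than in WT and 39.3% lower in CLEAR_PS19 than in PS19. In granule-like nuclei it was 56.4% and 56.9% lower. The CLEAR difference in CA3 was 0.381 less negative on the log2 scale than in granule-like nuclei (exact two-sided permutation within tau status, 1225 relabellings, p = 0.00163, adjusted over 3 tests 0.00245). In the fit across all genes that difference was 0.36 (edgeR adjusted p = 0.264), where 0 of 15591 genes passed (0%), with 912 at an unadjusted p under 0.05 and 1 by DESeq2. Against CA1-like nuclei the CA3 fall was 0.139 more negative (exact permutation p = 0.1), which did not exceed the spread between libraries, and 0 of 15195 genes passed (0%; 824 at an unadjusted p under 0.05, 0 by DESeq2). Without CLEAR_PS19 replicate 3 that value was -0.195 (exact permutation p = 0.00143). Rgs20, whose gene overlaps the start of Atp6v1h on the other strand, differed by -0.69 (edgeR adjusted p = 0.474).

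**Figure D5:**
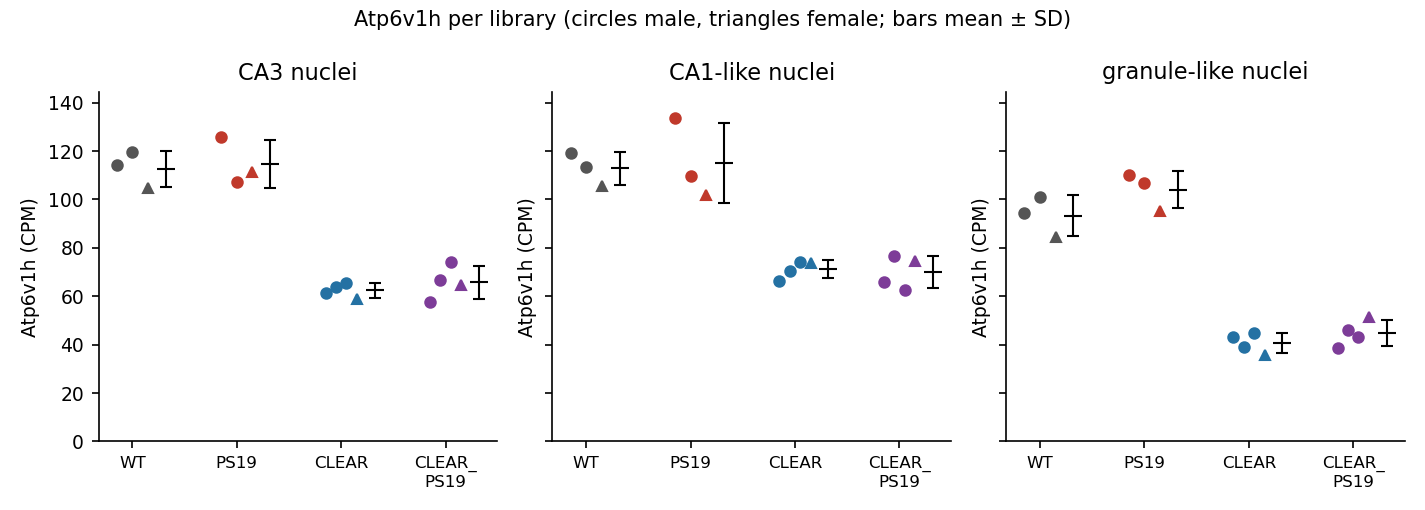
Atp6v1h CPM per library in CA3, CA1-like and granule-like nuclei, with circles for males, triangles for females and bars for the mean ± SD. In CA3 the CLEAR and CLEAR_PS19 points (57.6 to 74.3 CPM) lie below all WT and PS19 points (105 to 126 CPM).

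No other V-ATPase subunit passed for CLEAR. Of the other 17, 12 were higher and 5 lower, with the proteolipid subunit Atp6v0c at 0.52. Of 52 lysosomal genes 37 were higher (median 0.04) and none passed. Respiratory chain genes were higher in 23 of 29 cases (median 0.16) and stress response genes in 16 of 20 (median 0.20), with none called. Activity-induced genes were lower in 24 of 28 cases (median -0.15), none called. These shifts stand beside the library sets named above, which hold CLEAR and CLEAR_PS19 libraries 1 and 2 apart, and their part in them was not tested.

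Within single backgrounds, 2 genes each passed for CLEAR (0.0134% in both). Against WT these were Atp6v1h (-0.86, edgeR adjusted p = 0.00109) and Mcmdc2, a meiotic helicase relative, with 12.4, 12.7 and 5.65 CPM in WT and 28.1, 24.1, 23.1 and 30.8 in CLEAR (1.33, SE 0.206, edgeR adjusted p = 0.0495). Mcmdc2 overlaps the host gene Snhg6 on the other strand, and its call was lost in 13 of 14 fits without a library. On the tau background they were Atp6v1h (-0.82, edgeR adjusted p = 0.00254; 0.0779 without PS19 replicate 1) and P2ry6, a nucleotide receptor, with 8.84, 6.05 and 9.34 CPM in PS19 and 1.96, 2.21, 3.86 and 2.02 in CLEAR_PS19 (-1.72, SE 0.26, edgeR adjusted p = 0.0374). The P2ry6 call was lost in 7 of 14 such fits. P2ry6 had 7 to 8.3 CPM in WT and 4.38 to 6.43 in CLEAR, and its average over both backgrounds was -1.12 (edgeR adjusted p = 0.0513). Apoe, the lipid carrier made mostly by astrocytes and microglia, had 51.1, 59.4 and 20.8 CPM in PS19 and 15.3 to 20.7 in CLEAR_PS19 (-1.30, edgeR adjusted p = 0.15).

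Whether the tau effect in CA3 nuclei differed between the backgrounds was asked by the interaction term. It passed for 0 of 14923 genes (0%), with 660 at an unadjusted p under 0.05 and 1 gene by DESeq2. Adarb2 had the smallest p (1.79, SE 0.33, edgeR adjusted p = 0.746). With the replicate block 2 genes passed (0.0134%), Adarb2 (1.74, edgeR adjusted p = 0.0286) and Pnmal2, named after its values were seen (1.19, 0.0286). For the cholesterol genes the interaction was above 0 in 18 of 22, that is, a less negative or more positive tau difference on the CLEAR background (median 0.42), with 4 at an unadjusted p under 0.05, against 4.42% of all genes, and none called.

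In whole hippocampus at 9 months, none of the 5 CA3 markers passed between PS19 and WT, while 2060 of 16133 genes did (12.8%). In bulk tissue, fewer cells of a type and less RNA per cell cannot be told apart. Grik4 had 77.3 ± 14.7 CPM in WT (SD, n = 5) and 62.5 ± 5.10 in PS19 (n = 4), a log2 difference of -0.31 (SE 0.126, edgeR adjusted p = 0.117). Rerg had 25.3 ± 2.90 and 21.4 ± 3.49 CPM (-0.24, edgeR adjusted p = 0.198). Iyd (3.66 ± 0.365 and 3.46 ± 0.0934 CPM), Ccbe1 (24.6 ± 6.40 and 25.5 ± 7.19) and Nectin3 (50.6 ± 7.65 and 50.3 ± 1.13) differed by -0.08, 0.05 and -0.01 on the log2 scale. At 4 months none of the 5 passed, with Grik4 at 0.11 and edgeR adjusted p of 1 throughout, where 3 genes passed (0.0186%). Prnp in the 9-month bulk libraries rose from 922 ± 38.2 to 2125 ± 134 CPM (1.21), against 0.94 between PS19 and WT in CA3 nuclei. Mapt, which did not pass in CA3 nuclei, passed in bulk. It rose from 472 ± 27.8 to 652 ± 32.4 CPM at 9 months (0.47, edgeR adjusted p = 8.28e-06), and by 0.60 at 4 months (edgeR adjusted p = 3.89e-07). Whether these Prnp and Mapt reads in bulk came from the mouse genes or from the transgene was not tested.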

How the data were processed

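Nuclei were isolated from frozen hippocampus and sequenced with the 10x 3' assay, and RNA of whole hippocampus was sequenced in bulk, per the labels' protocols. Each deposited matrix gives, for every barcode, the UMI counts of the genes, and per the file headers the software was Cell Ranger 5.0.1. The deposited bulk tables hold read counts per gene. The submitters' processing notes name mm10, Cell Ranger and Seurat for nuclei and cutadapt, STAR, featureCounts and DESeq2 for bulk libraries. The use of strand in counting is not given in the sources used here. No deposited cell annotation was used, so the CA3, CA1-like and granule-like names are rebuilt from markers and may differ from those of the study.

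Counts of CA3 nuclei were summed per library and tested with edgeR 4.0.16 in R 4.3.3 (filterByExpr, TMM, quasi-likelihood F test, 4 groups plus sex, Benjamini-Hochberg adjusted p under 0.05 over all genes tested). Differences from CA1-like and granule-like nuclei were fitted on the sums of both kinds with the library as a block. Shares and the Atp6v1h level used exact two-sided permutation tests within the other genotype. The alternatives by library set permuted the shares within these sets instead. CPM in genotype comparisons, in comparisons of a genotype effect between nuclei and in sums of the gene lists used TMM-adjusted library sizes. Levels compared between kinds of nuclei and single markers of other cells used plain totals of UMIs. Scrublet was run per library in scanpy 1.11.5 at an expected rate of 0.8% per 1000 barcodes. DESeq2 1.42.0 was an alternative. Gene positions came from GENCODE vM21 (mm10), which matched 32158 of 32285 genes. Scripts were tested on simulated counts.

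Named genes were the 12 called genes with the smallest p in each direction for the tau and CLEAR averages, and 5 in each direction for the other comparisons. Where fewer than 5 passed, the 5 with the smallest p were named as values, and called list members, Atp6v1h, Prnp, Mapt, Rgs20, the markers and the check genes were always named. Genes of the selection rule, sex-linked genes and gene models without a name stayed out of the ranking. Some genes that the rule names are not reported here. The members, gene lists and comparisons were chosen with earlier results of these data known. Alternatives were other size factors, DESeq2, no filter on low counts, a stricter gate, Scrublet doublets left out, other covariates, males only and each library left out. For the tau comparisons the replicate numbers of the labels were taken as a pairing from the data, since the labels give no shared litter or batch: over genes, the deviations of same-numbered libraries from their group means correlated at 0.294 to 0.563 for PS19 with WT (3 pairs) and at 0.351 to 0.534 for CLEAR_PS19 with CLEAR (4 pairs). The female pairs were the highest (0.563 and 0.534). The unlike-numbered CLEAR replicate 2 and CLEAR_PS19 replicate 1 correlated at 0.397, above the same-numbered pairs of replicates 1 (0.39) and 2 (0.367). The pairing is therefore not certain, nor are calls that rest on it alone. Counts limit the precision, and a count of 0 allows up to 3 counts, which covers counting error only.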

Additional observations from a re-analysis of the deposited data

Results flagged for a closer look

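Of 47 groups of 4 libraries, 5 had 1 library far from the others, where chance gives about 1 in 20. CLEAR replicate 3 had a CA3 share of 3.994% of barcodes with at least 1000 genes, and the other CLEAR libraries 3.216 to 3.336%. The same library had a cholesterol gene sum of 300.3 CPM, against 366.1 to 377 in the other CLEAR libraries. CLEAR replicate 2 had 0.3401 CPM of Gm43049, against 0 in the others. That value rests on 2 UMIs, within the 3 counts that a count of 0 allows. CLEAR_PS19 replicate 4 had 28.32 CPM of Gm32754, against 10.17 to 13.17. CLEAR_PS19 replicate 3 had 3.861 CPM of P2ry6, against 1.961 to 2.206.

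For 20 named genes the tau effect differed between CA3 and granule-like nuclei by a test of the difference itself (edgeR, library as block). The difference, CA3 minus granule-like on the log2 scale, was above 0 for Tead1 (0.5692), Ntng2 (0.476), Unc5c (0.3189), Pparg (0.5549), March1 (0.5003) and Grik2 (0.2519). It was below 0 for Hpca (-0.8404), Sidt1 (-0.5118), Nrip3 (-0.7975), Hectd2os (-0.9552), Hectd2 (-0.9107), Cnih3 (-0.6241), Homer2 (-0.6551) and Kcnh5 (-0.4872). It was also below 0 for Cacna1g (-0.9839), Camk4 (-0.825), Fosl2 (-1.201) and Stmn4 (-0.5975), and for the cholesterol genes Msmo1 (-0.8682) and Stard4 (-2.193).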

How the results depend on the processing

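Counts below are of genes called in the order tau average, CLEAR average, PS19 against WT, CLEAR_PS19 against CLEAR, CLEAR against WT, CLEAR_PS19 against PS19 and interaction, where the reported counts are 9, 1, 5, 3, 2, 2 and 0. Where they moved, the cause was not tested. With no filter on low counts they were 167, 385, 139, 127, 87, 371 and 130, and the differences from CA1-like and granule-like nuclei gave 156 and 421 for tau and 59 and 111 for CLEAR. DESeq2's Wald test gave 16, 4, 16, 9, 2, 36 and 1, and 1 for CLEAR between CA3 and granule-like nuclei. Males only gave 23, 4, 9, 21, 0, 25 and 5, and 2 for tau between CA3 and CA1-like nuclei. Fits of only the 2 groups compared gave 18 (PS19 against WT), 5 (CLEAR_PS19 against CLEAR), 1 (CLEAR against WT) and 6 (CLEAR_PS19 against PS19). DESeq2's size factors gave 2 for the CLEAR average and 1 for CLEAR against WT. With library sets from granule sums in place of sex, the tau average had 6, the CLEAR average 3, PS19 against WT 3 and CLEAR against WT 1. Without a covariate the tau average had 6, PS19 against WT 3, CLEAR against WT 1 and CLEAR_PS19 against PS19 1. In both settings the 6 genes of the tau average were 5 higher and 1 lower, where the reported fit had 5 and 4. The stricter gate gave 8 for the tau average, 1 for CLEAR_PS19 against PS19 and 5 for tau between CA3 and CA1-like nuclei. Leaving out Scrublet doublets gave 2 for the CLEAR average, 4 for CLEAR_PS19 against PS19 and 14 for tau between CA3 and CA1-like nuclei. Library sets from the CA3 sums, added after seeing the data, gave 15 for the tau average, 16 for PS19 against WT, 5 for CLEAR_PS19 against CLEAR and 1 for CLEAR_PS19 against PS19, and the largest set alone gave 20 for the tau average.

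The replicate block gave 23, 2982, 21, 8, 1612, 1665 and 2 genes in the order above. For CLEAR the numbers were not taken to pair the libraries, as same-numbered libraries with and without CLEAR correlated at -0.299 to 0.245. Over the 14 libraries 12 correlated best with their own number. With pairs numbered within CLEAR status, added after seeing the data, 25 genes passed for the tau average, 21 for PS19 against WT, 8 for CLEAR_PS19 against CLEAR and 3 for the interaction (Adarb2, Pnmal2 and Sav1). For the tau average, Adarb2 passed with the first block (edgeR adjusted p = 0.038; 0.0539 with the second) and Sav1 with the second (0.00104; 0.0506 with the first). Between CLEAR_PS19 and CLEAR, Pnmal2 passed with the first (0.0462; 0.0628 with the second). Apart from these and the changes given beside the tau results, neither block changed the tau call of another gene named in the text, and the second gave -0.4989 points for the tau share (exact permutation p = 0.422). In the 9-month bulk libraries, where same-numbered libraries correlated at 0.0156 to 0.0813, the block called 1 of the 5 markers and 2127 of all 16133 genes.

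Leaving out 1 library at a time gave 5 to 22 genes for the tau average (22 without PS19 replicate 3, 14 without WT replicate 3, 5 without PS19 replicate 1), 1 to 5 for the CLEAR average, 3 to 23 for PS19 against WT (23 without PS19 replicate 3) and 3 to 22 for CLEAR_PS19 against CLEAR (22 without CLEAR_PS19 replicate 4). It gave 1 to 3 for CLEAR against WT, 0 to 29 for CLEAR_PS19 against PS19 (29 without CLEAR_PS19 replicate 4, 13 without CLEAR_PS19 replicate 3, 8 without PS19 replicate 3, 0 without PS19 replicate 1) and 0 to 2 for the interaction. Between CA3 and CA1-like nuclei it gave 0 to 4 for tau and 0 for CLEAR, and between CA3 and granule-like nuclei 39 to 75 and 0 to 2. The share differed by -0.754 to -0.3716 points with tau and by -0.1934 to 0.2031 with CLEAR, below 0 in 6 of these fits (-0.01999, -0.02743, -0.1934, -0.03774, -0.05132 and -0.003434). The tau share difference turned to 0.03717 among glutamatergic barcodes, and the CLEAR one to -0.9075 there, to -0.1138 with the stricter gate, and to -0.2083 and -0.01238 within the library sets of granule and CA3 sums. Atp6v1h fell by -0.859 to -0.7942 in CA3, and its difference was -0.1951 to -0.1077 from CA1-like and 0.342 to 0.4193 from granule-like nuclei. Named genes of these comparisons that ended their call under a planned setting other than a left-out library numbered 0 of 44 with no filter, 0 of 39 with DESeq2's Wald test, 0 of 23 with the replicate block, 2 of 12 with only the 2 groups compared, 2 of 44 with other size factors, 4 of 44 each with the stricter gate and without Scrublet doublets, 5 and 6 of 23 with library sets from granule sums and without a covariate, and 11 of 44 with males only. Among them, all by edgeR, was Msmo1 with library sets (adjusted p = 0.169), no covariate (0.0979), the stricter gate (0.0706) and no Scrublet doublets (0.0563). Tmem200a was another, with library sets (edgeR adjusted p = 0.101), no covariate (0.112) and males only (0.223).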

Other observations

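Some genes differed between libraries of the same genotype, and they were chosen after their values were seen. Gabrg3, a GABA-A receptor subunit and the closest correlate of Sgcd among CA3 nuclei, had 976 and 1018 CPM in CA3 nuclei of CLEAR replicates 1 and 2, and 205 to 302 CPM in the other 12 libraries. The same 2 libraries stood above the rest in CA1-like nuclei (1021 and 1047 CPM, others 517 to 733) and in granule-like nuclei (576 and 531, others 88.9 to 177).

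Sav1, a scaffold of the Hippo pathway, took 3 levels. In CA3 nuclei it had 13.3 to 15.6 CPM in WT replicate 1, PS19 replicate 1 and all 4 CLEAR libraries. It had 30.5 to 47.6 CPM in WT replicates 2 and 3, PS19 replicates 2 and 3, and CLEAR_PS19 replicates 3 and 4, and 82.3 and 86.8 CPM in CLEAR_PS19 replicates 1 and 2. CA1-like nuclei of the same libraries showed the same order at 10.3 to 14.4, 29.7 to 46.6, and 66.3 and 73.6 CPM. Granule-like nuclei did so at 10.5 to 16.2, 28.2 to 40.1, and 59.5 and 67.4 CPM. In CA3 nuclei all 4 CLEAR libraries lay below all 4 CLEAR_PS19 libraries (log2 2.17, edgeR adjusted p = 0.0726, and 0.0053 with the replicate block), while WT and PS19 overlapped.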
